A study of Drosophila melanogaster with 20 samples.

Results

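Scaffold U of the dm3 assembly collects Drosophila sequence that could not be assigned to a chromosome. It was placed end to end only for convenience, so distance along U is not distance along a chromosome. Its windows were chosen by name alone, as every row of the profiles that lies on U. There were 1968 such windows for H3K27me3, or 7.12% of 27631, and 1963 for H3K27me2, or 7.11% of 27611, and 1952 positions had a value in all 4 profiles. Each value is log2(ChIP/input) over a window of 50 kb, windows follow at steps of 5 kb, and neighbours therefore share most of their sequence.

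The profiles came from salivary glands of larvae of the third instar, raised at 23 °C, of the wild type strain (labelled yw) and of SuUR mutants, for which the labels name no allele. Chromatin of 20 pairs of glands by the labels was precipitated with an H3K27me3 antibody from Cell Signaling Technology or an H3K27me2 antibody from Millipore, the pair with which the study tested antibody specificity. By the labels each of the 4 profiles combines 1 ChIP and 1 input library, 8 libraries in all, and the 12 embryo libraries of the study were not analysed here. The study's methods mention biological replicates, but each group has a single profile here, so no difference between genotypes could be tested, and every SD below is a spread over windows. Within each antibody the genotypes had been brought to the same distribution over all chromosomes, so values on U are high or low only relative to the rest of the genome. Read numbers are not given with the profiles, and depth is unknown.

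Methylation of lysine 27 of histone H3 is placed by Polycomb repressive complex 2. The trimethylated form is bound by the Polycomb protein in repressed domains, while the dimethylated form covers much of the silent genome. Unplaced sequence is largely heterochromatic and rich in repeats, a kind of chromatin that stays under-replicated in salivary gland polytene chromosomes. SUUR protein slows replication of such chromatin, and in SuUR mutants many under-replicated regions become fully polytenized. Each ChIP library was divided by an input library of its own genotype, and the part of copy number in the differences was not tested. No genome of the dm3 assembly was used here, so the sequence, genes and repeats of the windows are not described.

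H3K27me3 on U was high in wild type and low in SuUR mutants, whereas H3K27me2 was similar in both. In wild type, H3K27me3 ranged from −3.99 to 3.155 over the 1968 windows, with a median of 0.21 and a mean of 0.12 (SD over windows 0.74). In SuUR mutants it covered the same range, with a median of −0.37 and a mean of −0.31 (SD over windows 0.67). The middle of the distribution thus lay above 0 in wild type and below 0 in the mutants. H3K27me2 had a median of 0.235 in wild type and of 0.15 in SuUR mutants, with means of 0.22 and 0.18 (SD over windows 0.65 in both). Its values reached from −3.47 to 3.19 in both genotypes.

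By rank, the mean U window stood at percentile 64.9 of the wild type H3K27me3 profile and at percentile 30.0 of the SuUR profile. The mean percentile for H3K27me2 was 63.5 and 61.0, with the higher value in wild type. The sign of the values showed the same contrast. H3K27me3 was above 0 in wild type only in 976 windows of U, or 49.6%, and in SuUR mutants only in 102, or 5.18%. Over the X chromosome and both arms of the large autosomes, called the arms here, these shares were 11.1% and 18.9%. H3K27me2 was above 0 in wild type only in 20.6% of U windows and in SuUR mutants only in 18.7%.

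The difference, taken as wild type minus SuUR mutants, averaged 0.43 for H3K27me3 (SD over windows 0.77, median 0.525), and 1492 of 1968 windows, or 75.8%, were higher in wild type. For H3K27me2 it averaged 0.043 (SD over windows 0.82, median 0.040), and 1033 of 1963 windows, or 52.6%, were higher in wild type. The H3K27me3 average was smaller than the spread between windows, and the H3K27me2 average was small even against the spread of its block means (SD 0.10). It went to 0.026 without the block from 3 to 4 Mb. In alternatives added once the data had been seen, it went to 0.0089 without windows equal in value to a neighbour and to 0.0073 without windows within 50 kb of an absent position. When the H3K27me2 difference was subtracted from that of H3K27me3, the mean over 1952 windows was 0.38 (SD over windows 1.11), and 69.7% of them were above 0.

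A difference of at least 0.5 on the log2 scale, which is 1.41-fold, was taken as a mark of strong change. H3K27me3 was higher in wild type by this measure in 1009 of 1968 U windows, or 51.3%, against 8.32% of all windows. It was lower in wild type in 208 U windows, or 10.6%, against 5.16% of all windows. H3K27me2 was higher in wild type in 480 of 1963 U windows, or 24.5%, against 3.53% of all windows, and lower in 407, or 20.7%, against 3.95%. Strong changes of both marks in either direction were therefore more frequent on U than over all windows. The H3K27me3 changes were mostly towards wild type, while those of H3K27me2 were divided almost evenly. On the 6 heterochromatic scaffolds assigned to chromosomes, H3K27me3 was strongly higher in wild type in 46.3% of windows and H3K27me2 in 10.7%. There H3K27me3 was strongly lower in wild type in 3.07% and H3K27me2 in 16.5%. The latter share ran from 3.23% on XHet to 30.0% on YHet. The share with H3K27me3 strongly higher ran from 32.3% on XHet to 62.0% on YHet, and with H3K27me3 strongly lower from 0% to 16.0% on the same scaffolds. H3K27me2 was strongly higher in 0% of windows on 2LHet and XHet and in 42.0% on YHet. YHet, which has only 50 windows, thus exceeded U in all 4 shares.

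All 6 heterochromatic scaffolds assigned to chromosomes had a higher average H3K27me3 in wild type, as U had. Their 1726 windows averaged 0.48 for H3K27me3 (SD over windows 0.62), with scaffold averages from 0.23 on XHet to 0.62 on 3RHet. Their 1717 windows averaged −0.048 for H3K27me2 (SD over windows 0.62). The average on U thus lay within the range of these scaffolds for H3K27me3, and for H3K27me2 it lay between −0.18 on 2LHet and 0.27 on YHet. On the arms the averages were −0.072 for H3K27me3 and 0.00028 for H3K27me2. The difference between U and these scaffolds was not tested, since all of them come from the same libraries.

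**Figure D1:**
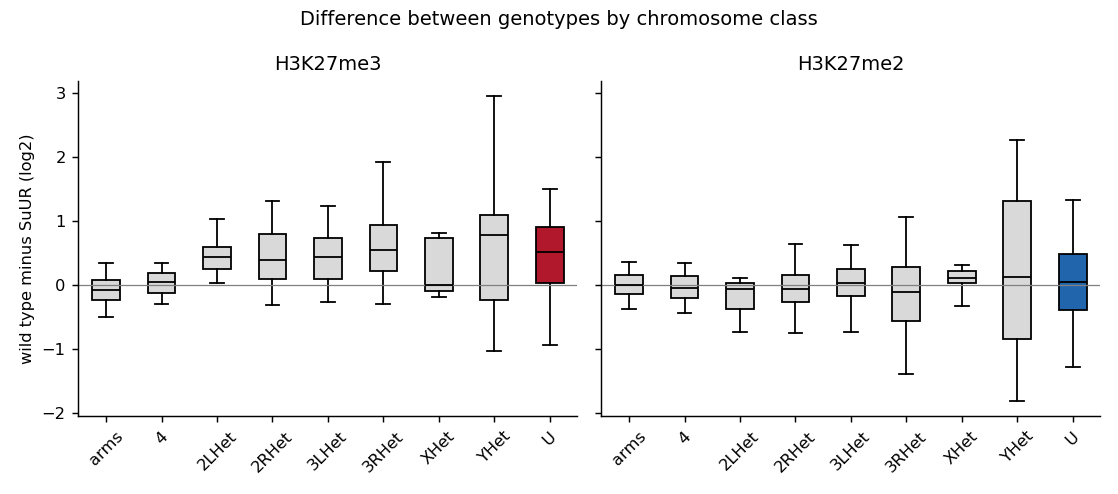
Wild type minus SuUR difference in log2(ChIP/input) for H3K27me3 and H3K27me2 over windows of the arms together, chromosome 4, the 6 heterochromatic scaffolds and U (coloured). Boxes span the quartiles with the median as a line, and whiskers reach from the 5th to the 95th percentile of windows. The U median is 0.525 for H3K27me3 and 0.040 for H3K27me2.

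The spread between windows was wide on U. The SD over windows was 1.99 times that of the arms for wild type H3K27me3 and 1.72 times for SuUR H3K27me3, and 2.79 and 2.76 times for the H3K27me2 profiles. For the differences it was 2.88 times that of the arms for H3K27me3 and 3.60 times for H3K27me2. Against the 6 heterochromatic scaffolds together the ratios were 1.24 and 1.33. By scaffold, the SD of the H3K27me3 difference ran from 0.33 on 2LHet to 1.29 on YHet, with 0.77 on U. That of the H3K27me2 difference ran from 0.21 on XHet to 1.42 on YHet, with 0.82 on U. The spread on U was thus exceeded on YHet, which has 50 windows. Windows of U also made up much of the extremes of the profiles. Of the 282 windows in the lowest 1% of H3K27me3 values, 165 lay on U in wild type (58.5%) and 228 in SuUR mutants (80.9%), although U holds only 7.12% of windows. At the high end, 38 of 278 lay on U in wild type (13.7%) and 20 in SuUR mutants (7.19%), above the share of U in all windows in wild type and about equal to it in the mutants. For H3K27me2 both ends were rich in U windows, with 177 of the 280 highest values in each genotype and 121 and 116 of the 277 lowest values in wild type and SuUR mutants. The 6 heterochromatic scaffolds had 1717 of the 27611 H3K27me2 windows. In wild type and SuUR mutants they held 98 and 102 of the highest H3K27me2 values and 58 and 29 of the lowest. For H3K27me3 they held 30 and 50 of the 282 lowest values and 33 and 0 of the 278 highest.

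Values on U were also often tied. A window had exactly the value of the one before it in 16.5% of cases in wild type H3K27me3 and 12.9% in SuUR H3K27me3, against 5.59% and 5.80% on the arms. In the H3K27me2 profiles this share was 17.9% for wild type and 11.8% for SuUR mutants, against 5.10% and 5.71% on the arms. The most common wild type H3K27me3 value on U, 0.365, stood in 97 of its windows and in 122 windows of the whole profile. Ties were not more frequent among large H3K27me3 differences. A value equal to that of a neighbour in either genotype was found in 40.0% of the 485 windows with a difference of at least 1 and in 40.6% of the 1483 others. For H3K27me2 these shares were 46.7% of 334 and 41.5% of 1629. The SD of the difference was 0.74 without such windows and 0.77 with them for H3K27me3, and 0.81 and 0.82 for H3K27me2. The part of ties in the differences was not tested.

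Positions without a value were few. The H3K27me3 profiles lacked 31 positions of U and the H3K27me2 profiles 36, and the longest absent stretch ran from 720000 to 790000 for H3K27me3 and from 715000 to 790000 for H3K27me2. Windows that do not overlap were nearly unrelated. Pearson's r between windows 5 kb apart was 0.89 for wild type H3K27me3 (1961 pairs), and between windows 50 kb apart, which no longer overlap, it was 0.087 (1934 pairs). At 50 kb it was 0.016 for SuUR H3K27me3, −0.024 for wild type H3K27me2 and −0.042 for SuUR H3K27me2. Neighbours within a block are thus strongly related through the sequence they share, and windows a full length apart are not.

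U was next divided into blocks of 1 Mb, 10 of which hold 179 to 200 windows for each mark. The last, from 10 to 11 Mb, holds 2 windows for H3K27me3 and 4 for H3K27me2 and is left out of the counts. In wild type the block means of H3K27me3 lay between −0.26 and 0.48 and were above 0 in 8 of 10 blocks. In SuUR mutants they lay between −0.56 and −0.15, and no block was above 0. The wild type mean was higher in 10 of 10 blocks. The H3K27me2 block means lay between 0.055 and 0.42 in wild type, above 0 in all 10 blocks, and between −0.091 and 0.34 in SuUR mutants, above 0 in 8.

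**Figure D2:**
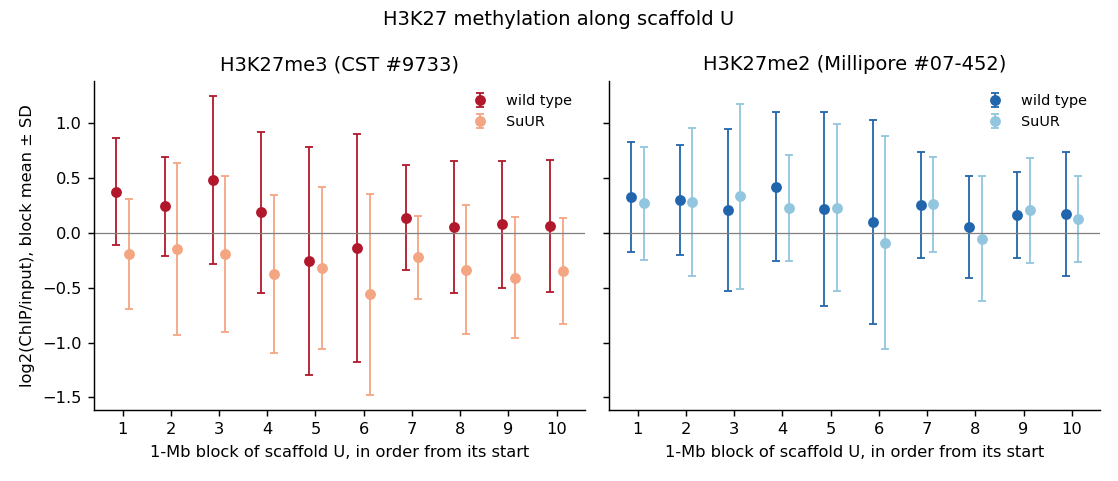
Mean log2(ChIP/input) over the windows of each 1-Mb block of U, numbered 1 to 10 from the start of U, with bars for the SD over windows. In H3K27me3 the wild type mean lies above the SuUR mean in all 10 blocks, with bars that overlap. In H3K27me2 the genotypes lie close together and their order changes between blocks.

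The H3K27me3 difference was largest between 2 and 3 Mb. There wild type averaged 0.48 and SuUR mutants −0.19, and the difference averaged 0.67 (SD over windows 0.88) with 84.5% of windows higher in wild type. From 0 to 1 Mb the difference averaged 0.57 (SD over windows 0.68), and from 3 to 4 Mb it averaged 0.56 (SD over windows 0.53) with 88.0% of windows higher in wild type. The block from 3 to 4 Mb was the only one of 10 in which the average difference exceeded its own SD over windows. The 6 blocks from 1 to 2 Mb and from 5 to 10 Mb were alike, with averages of 0.39, 0.42, 0.36, 0.39, 0.49 and 0.41 in order along U.

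The block from 4 to 5 Mb stood apart. Its wild type H3K27me3 mean of −0.26 (SD over windows 1.04) was the lowest of all blocks and its SuUR mean was −0.32 (SD over windows 0.74). The difference averaged 0.062 with an SD over windows of 1.14, the widest of all blocks, and 57.1% of windows were higher in wild type. Its sign was not stable. When only windows that do not overlap were taken, which can be done from 10 starting positions, the average was above 0 for 7 of 10 starts, while in every other block it was above 0 for 10 of 10. Without windows equal in value to a neighbour, 40 windows were left in the block and averaged −0.30. Without windows within 50 kb of an absent position, 133 were left and averaged −0.0040.

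Only a small part of the variation lay between blocks. Block means accounted for 7.94% of the variance of wild type H3K27me3 windows and 3.17% of SuUR H3K27me3 windows. They accounted for 4.12% of the variance of the H3K27me3 difference and 1.36% of that of the H3K27me2 difference. The remainder lay within blocks, where the SD over windows ran from 0.53 to 1.14 for the H3K27me3 difference and from 0.48 to 1.16 for the H3K27me2 difference. The blocks from 4 to 5 Mb and from 2 to 3 Mb had the widest H3K27me2 differences, with an SD of 1.16 and 1.15, and the block from 8 to 9 Mb the narrowest.

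**Figure D3:**
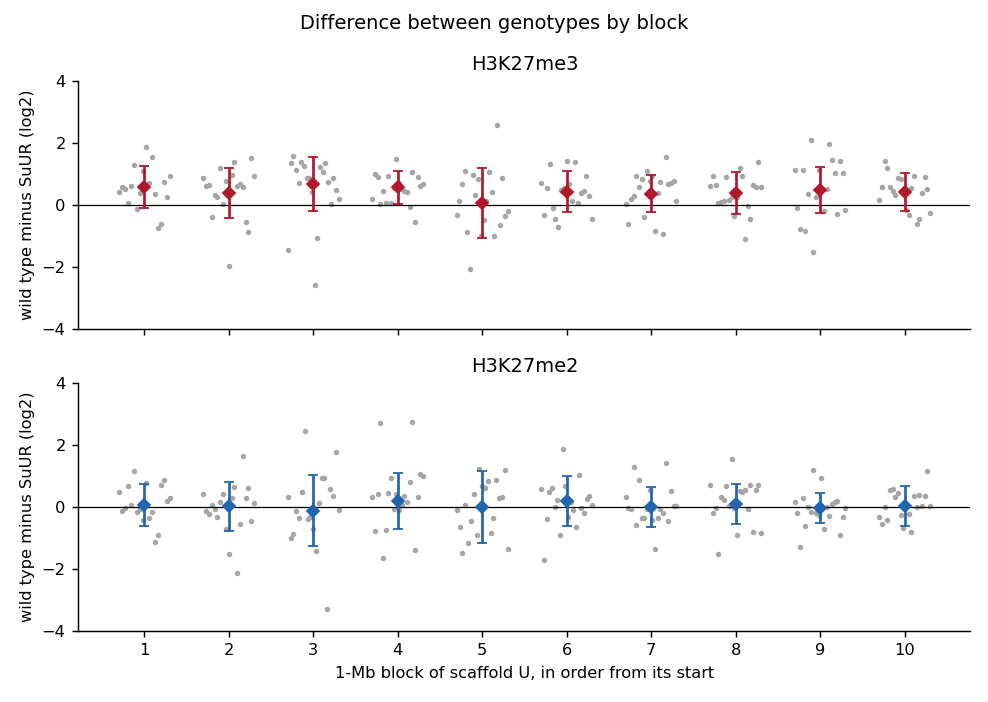
Wild type minus SuUR difference by 1-Mb block of U, numbered 1 to 10 from its start. Grey points are windows that do not overlap, diamonds are means over all windows of the block and bars their SD. The H3K27me3 means run from 0.062 to 0.67, and the H3K27me2 means lie on both sides of 0, from −0.12 to 0.20.

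The marks changed in opposite directions in 4 of 10 blocks, and in each of these H3K27me3 was higher and H3K27me2 lower in wild type. No block showed the reverse with all windows taken. Between 2 and 3 Mb the H3K27me2 difference averaged −0.12 (SD over windows 1.15), beside the H3K27me3 difference of 0.67. Between 8 and 9 Mb the H3K27me2 average was −0.043 (SD over windows 0.48), beside 0.49 for H3K27me3. In the other blocks of this kind the H3K27me2 average was near 0, with −0.0094 from 4 to 5 Mb and −0.0035 from 6 to 7 Mb.

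The block from 2 to 3 Mb was the only opposite block whose H3K27me2 average was beyond 0.1 in size. It also held the lowest H3K27me2 share, together with the block from 8 to 9 Mb, with 44.6% and 44.5% of windows higher in wild type. Part of its average came from a single run of 24 overlapping windows, centred from 2095000 to 2210000, where the H3K27me2 difference averaged −0.95. The average from 2 to 3 Mb without this run was not calculated. Over the 10 sets of windows that do not overlap, the marks were opposite for 9 starts between 2 and 3 Mb and for 8 between 8 and 9 Mb. They were opposite for 6 starts between 4 and 5 Mb, for 4 between 6 and 7 Mb and for 3 in each of the blocks from 1 to 2 and from 9 to 10 Mb, so no block was opposite for all 10 starts. In alternatives added once the data had been seen, leaving out windows equal to a neighbour gave 5 opposite blocks. Among them the block from 4 to 5 Mb was then of the reverse kind, with H3K27me3 at −0.30 and H3K27me2 at 0.012. In another such alternative, leaving out windows near absent positions gave 4, of which 3 are those above. With blocks of 2 Mb no block of 5 was opposite. Block medians and percentile ranks each gave 4 opposite blocks, the same 4 as above. Subtraction of the arm median, −0.075 for H3K27me3 and 0.0050 for H3K27me2, gave these 4 as well. Shifts of this size and direction could not change the sign of any block average.

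In the other 6 blocks the marks changed in the same direction, both higher in wild type. The H3K27me2 difference averaged 0.196 from 3 to 4 Mb (SD over windows 0.91, 68.8% of windows higher in wild type). From 5 to 6 Mb it averaged 0.19 (SD over windows 0.80), but its median was 0.0425 and 53.0% of windows were higher in wild type. From 7 to 8 Mb it averaged 0.11 (SD over windows 0.64, 63.0% of windows higher in wild type). It was 0.059, 0.016 and 0.045 in the blocks from 0 to 1, from 1 to 2 and from 9 to 10 Mb. The H3K27me3 difference exceeded the H3K27me2 difference in 10 of 10 blocks. This gap averaged from 0.066 between 4 and 5 Mb to 0.83 between 2 and 3 Mb (SD over windows 1.75 and 1.38).

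For single windows, opposite signs with H3K27me3 higher and H3K27me2 lower in wild type were found in 684 of 1952 U windows, or 35.0%, against 21.2% of all windows. The reverse signs were found in 240 U windows, or 12.3%, against 28.2% of all windows. With both differences past 0.5, the first kind numbered 182 windows, or 9.32%, against 1.28% of all windows. The second kind numbered 68, or 3.48%, against 0.334%. Opposite strong changes were thus more frequent on U than over all windows, as were strong changes of each mark alone. The 6 assigned heterochromatic scaffolds together had 7.87% of windows of the first strong kind, with 14.2% on 3RHet and 22.7% on YHet, and 42.3% by sign alone. The reverse strong kind made up 0.822% of their windows, from 0% on 2LHet, 3RHet and XHet to 6.82% on YHet (3 of 44 windows). Among the 1000 U windows with H3K27me3 strongly higher in wild type, 18.2% had H3K27me2 strongly lower and 28.2% had it strongly higher. Over all 1952 windows these shares were 20.5% and 24.5%. Strongly lower H3K27me2 was therefore no more frequent among windows with strongly higher H3K27me3 than on U as a whole.

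By block, strong changes of the first kind were most frequent between 2 and 3 Mb, with 43 of 195 windows or 22.1%. Of these 43 windows, 24 formed a single run of overlapping windows. Such changes were least frequent between 8 and 9 Mb, with 9 of 200. Strong changes of the second kind were most frequent between 4 and 5 Mb, with 20 of 193 windows or 10.4%. That block held 17 windows of the first kind, 27 in which both marks were strongly higher in wild type and 19 in which both were strongly lower. Windows with both marks strongly lower were more frequent there than in any other block.

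**Figure D4:**
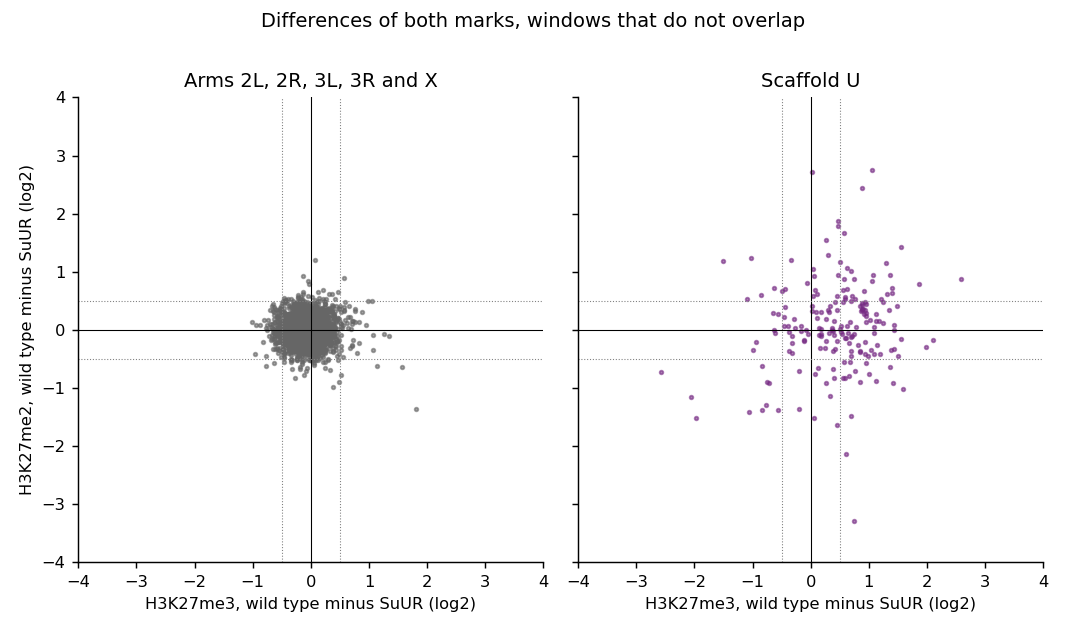
Difference of H3K27me3 against difference of H3K27me2, both wild type minus SuUR on the log2 scale, for windows that do not overlap on the arms (left, 2370 windows) and on U (right, 194 windows). Dotted lines mark 0.5 and −0.5. Arm windows cluster around 0, and U windows scatter widely in both directions with most of them to the right of 0.

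Across these 194 windows the differences of the marks were almost unrelated, with Pearson's r of 0.15 (Spearman's rho 0.095) and values of r from −0.14 to 0.15 over the 10 starts. The profiles of wild type and SuUR mutants were less alike on U than on the arms. Between genotypes, r was 0.43 for H3K27me3 (196 windows, rho 0.29) and 0.27 for H3K27me2 (195 windows, rho 0.14, r from 0.11 to 0.28 over the starts), whereas on the arms it was 0.75 and 0.52. On the 6 heterochromatic scaffolds r between genotypes was 0.11 for H3K27me3 (from −0.20 to 0.11 over the starts). For H3K27me2 it was 0.027 there (from 0.0061 to 0.19). Between the marks on U, r was 0.28 for wild type (rho 0.15, r from 0.10 to 0.32 over the starts) and 0.40 for SuUR mutants (rho 0.26). On the arms it was 0.34 for wild type (rho 0.46) and 0.19 for SuUR mutants (rho 0.28), so r in the mutants was higher on U. Without the 12 windows low in all profiles that are described next, an alternative added once the data had been seen, r between genotypes was 0.30 for H3K27me3 and 0.095 for H3K27me2. Between the marks it was then 0.093 for wild type and 0.28 for SuUR mutants. Over the 10 starts, r between genotypes then ran from 0.21 to 0.39 for H3K27me3 and from −0.045 to 0.095 for H3K27me2. Between the marks it ran from −0.057 to 0.17 for wild type and from 0.18 to 0.34 for SuUR mutants. All windows of a profile come from the same libraries, and their base composition and read depth were not examined, so these correlations are descriptions only.

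In a single place all profiles were very low. From 5270000 to 5325000, 12 consecutive windows of U were at −1 or lower in all 4 profiles. H3K27me3 averaged −3.65 in wild type and −3.64 in SuUR mutants there, with a lowest value of −3.99 in both. H3K27me2 averaged −3.075 and −3.09, with a lowest value of −3.47 in both. These were the lowest values of each profile. Quantile normalization gives the lowest ranks of both genotypes the same values, so levels this close follow from the rank and do not measure agreement between genotypes. The differences averaged −0.0054 for H3K27me3 (SD over windows 0.20) and 0.018 for H3K27me2 (SD over windows 0.12).

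Only 14 of all windows with a value in every profile were at −1 or lower in all 4 profiles, and 14 of these 14 lay on U, the other 2 at 4355000 and 4360000. The first window of the run ends at 5295000 and the last begins at 5300000, so the run is only just too long for all its windows to share a stretch of sequence. Within the block from 5 to 6 Mb, r over all windows was 0.78 between the H3K27me3 profiles and 0.65 between the H3K27me2 profiles. Over the 188 positions of the block outside the run it was 0.064 and −0.15. Between the marks in wild type it went from 0.75 to −0.075, and in SuUR mutants from 0.85 to 0.53. The correlation between genotypes in this block therefore rested on these 12 windows.

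The longest run of opposite strong changes covered 24 windows, centred from 2095000 to 2210000. H3K27me3 lay between 0.315 and 1.16 in wild type and between −0.91 and 0.010 in SuUR mutants, so the genotypes did not overlap. The H3K27me3 difference averaged 1.18, from 0.815 to 1.73. H3K27me2 lay between −1.205 and 0.15 in wild type and between 0.205 and 1.37 in SuUR mutants, again without overlap. The H3K27me2 difference averaged −0.95, from −2.085 to −0.53. The run was chosen because each of its windows had both differences past 0.5 in opposite directions, so this separation follows largely from the choice. Its neighbouring windows also share most of their sequence. In this stretch H3K27me3 was high and H3K27me2 low in wild type, with the reverse in the mutants. Of the 58 runs of this kind, 2 held at least 10 windows, and the second covered 10 windows from 4400000 to 4445000 with mean differences of 0.94 for H3K27me3 and −1.75 for H3K27me2.

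**Figure D5:**
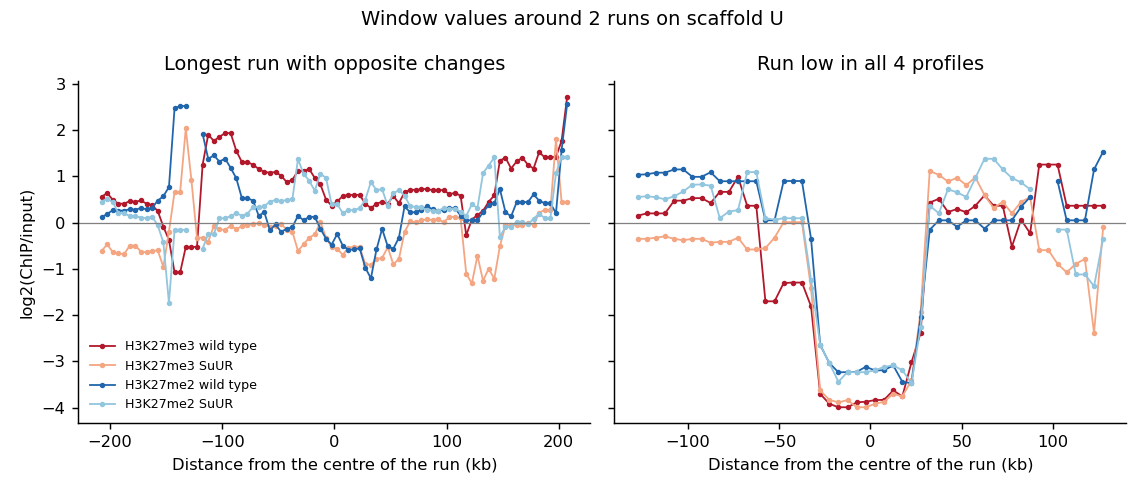
Window values of log2(ChIP/input) in all 4 profiles against the distance from the centre of 2 runs on U. On the left, over the central 24 windows, wild type H3K27me3 and SuUR H3K27me2 lie above 0.2, and wild type H3K27me2 and SuUR H3K27me3 lie at or below 0.15. On the right all profiles drop together to between −3.99 and −1.93 over 12 windows.

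The longest run of the reverse kind held 10 windows, from 4475000 to 4520000. H3K27me3 averaged −0.74 for wild type and 0.76 for SuUR mutants, which differ by −1.51, and H3K27me2 averaged 1.13 and −0.51, a difference of 1.64. It lies close to the run from 4400000 to 4445000, in which both marks differed in the other direction, and windows of these runs centred less than 50 kb apart share sequence. The longest runs of changes in the same direction were 13 windows with both marks strongly higher in wild type, from 2665000 to 2725000, and 10 windows with both strongly lower, from 2540000 to 2585000.

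Single windows reached differences far beyond the averages. The H3K27me3 difference was largest at 4385000, where wild type had 0.365 and SuUR mutants −3.155, and stood at 3.52. The next windows that do not overlap it were at 5420000, with a difference of 2.75, and at 8320000, with a difference of 2.595. In each of these 3 windows the wild type value was 0.365, the most common one on U, and the SuUR value was very low. At the other end stood 4250000, where wild type had −2.80 and SuUR mutants 0.93, which differ by −3.73, followed by 7685000 with −2.765 and 4505000 with −2.635. At 4250000 H3K27me2 went the opposite way, where wild type had 2.79 and SuUR mutants 0.020.

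The H3K27me2 difference was largest at 4240000, which overlaps the window just named, where wild type had 2.31 and SuUR mutants −1.26, and stood at 3.57. It was 3.335 at 5700000 and 2.76 at 3770000. The smallest values were −3.62 at 2780000, with −0.83 in wild type and 2.79 in SuUR mutants, −3.585 at 3260000 and −3.15 at 4400000. In all 3 of the latter windows H3K27me3 was higher in wild type, by 1.28, 1.32 and 1.45. Of the 12 windows named for their differences, 5 lay between 4 and 5 Mb. Among these 5, the windows at 4385000 and 4400000 overlap, as do those at 4240000 and 4250000, so they are not separate stretches.

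The highest H3K27me3 value on U was 3.155 in both genotypes, at 3255000 in wild type and at 2520000 in SuUR mutants. At 3255000 the SuUR value was 2.04, whereas at 2520000 the wild type value was only 0.665. The highest H3K27me2 value was 3.19, at 2925000 in wild type and at 2755000 in SuUR mutants, where the other genotype had 1.41 and 0.645. The single highest value of each mark thus lay in a different window in each genotype, while the lowest values of all profiles lay in the same run.

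The study listed regions that lose H3K27me3 in SuUR mutants, chosen on earlier array profiles, and 1 of them lies at the start of U. The profiles used here are separate libraries made with another antibody, and the study reported the same direction in them for its regions together. Whether the region on U differs between genotypes could not be tested here. The H3K27me3 difference averaged 0.53 over the 421 windows of this region (SD over windows 0.80) and 0.41 over the other 1547 windows of U (SD over windows 0.76), with 76.7% and 75.6% of windows higher in wild type. The wild type level was higher inside the region, with medians of 0.365 and 0.175, and so was the SuUR level, with −0.295 and −0.40. The H3K27me2 difference averaged 0.026 inside and 0.048 outside. Strong changes with H3K27me3 higher and H3K27me2 lower in wild type were found in 63 of 414 windows of the region (15.2%) and in 119 of 1538 windows of the rest of U (7.74%), and the longest run of this kind, with 24 windows, lies in the region. The reverse kind was found in 5.56% and 2.93%. Strong opposite changes of both kinds were thus more frequent in the region. Of its 63 windows of the first kind, 24 belong to that single run of overlapping windows. The difference in frequency was not tested.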

How the data were processed

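The authors mapped paired-end reads of 1 ChIP and 1 input library per profile to BDGP R5/dm3 with MOSAIK, scaled reads to RPM and deposited the log2 ratio of ChIP to input in windows of 50 kb at steps of 5 kb. Biological replicates are mentioned in the study's methods, and whether they were pooled in these profiles is not stated. The sorted values of the genotypes were checked and differed by 0 at most within an antibody, so the deposited log2 values are quantile normalized. How reads with several matching positions were counted bears on repeats and was not tested. The first row of each chromosome stands at 25000, and the position in column 2 was taken as the window centre, with 25 kb on each side. Windows of U were assigned to 1-Mb blocks by this position, and blocks with fewer than 20 windows were left out of counts of blocks. The threshold was 0.5 on the log2 scale. Named regions were all blocks, the 3 largest and 3 smallest differences of each mark among windows that do not overlap, the extreme levels and the longest runs with opposite changes. The runs low in all profiles and those with changes in the same direction were chosen after their values were seen. Members and comparisons were chosen with earlier results of these data known. No test was made, since each group is 1 profile. Block averages were checked on simulated profiles. Alternatives changed the windows, summary, scale, centring, threshold and blocks. Calculations used Python 3.11.15, numpy 2.4.6, pandas 2.3.3, scipy 1.17.1 and matplotlib 3.10.9.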

Additional observations from a re-analysis of the deposited data

How the results depend on the processing

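The average differences of H3K27me3 and H3K27me2 and their contrast on U kept their sign under all 11 alternatives tried for each. On the log2 scale they moved by less than the SD of the block means. Percentile ranks, which are on another scale, gave 34.9, 2.60 and 32.2 points, and linear ratios gave 0.32, 0.035 and 0.29. The median difference over all arm windows was −0.075 for H3K27me3 and 0.0050 for H3K27me2, and its subtraction raised the H3K27me3 average to 0.51. Opposite blocks numbered 7 of 20 with blocks of 0.5 Mb and 0 of 5 with blocks of 2 Mb, and 5 of 11 when the thin last block was counted. Shares of U windows depend on the threshold by construction. At 0.25, H3K27me3 was higher in wild type in 65.8% and lower in 15.9%, H3K27me2 was higher in 37.6% and lower in 30.5%, and H3K27me3 was higher with H3K27me2 lower in 19.1%. At 1, these shares were 20.4%, 4.22%, 9.27%, 7.74% and 1.64%, and the reverse kind of opposite change stood at 1.13%. At both thresholds each share on U stayed above that of all windows, except the share with H3K27me3 lower in wild type at 0.25, where all windows had 21.7%. With a single profile per group and no read numbers, the error of a window is unknown, and no paired analysis was possible because each group is 1 profile.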
